A study of Mus musculus with 4 samples.

Results

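The genes described here are 10 of the 53465 rows of the count table: the Id family (Id1, Id2, Id3 and Id4) and 6 genes of the BMP pathway that controls it (the receptors Bmpr1a and Bmpr2, the signal carriers Smad1 and Smad5, and the inhibitors Smad6 and Smad7). They were found by matching the table's Ensembl identifiers to gene symbols. All but Id4 had reads and passed the filter on low counts, so 9 of the 10 were among the 12320 genes tested. Id3 was chosen by its higher counts in the extravasated libraries. Its difference between the groups is therefore given as a description without a test, and the other genes were listed for their place in the family or pathway.

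The study infused fluorescent B16-F10 cells, a mouse melanoma line, into zebrafish, and measured polyA RNA of cells that were then grown in IMDM with 10% serum. Extravasation is the exit of cells from a blood vessel into the tissue. The 2 extravasated libraries are labelled as B16-F10 cells that left the vessels, and the 2 non-extravasated libraries, the controls, as B16-F10 cells that were infused and did not. The growth text of all 4 libraries, controls included, describes cells that left the vessels in clusters and were recovered from the fish, so the grouping relies on each sample's extravasation entry (Y or N) and source name. Nothing in the labels says whether libraries of a group are separate cultures, and p-values then measure only the spread between these libraries, which may be technical. In bulk RNA, fewer cells of a type and less RNA per cell cannot be told apart. The number in the sample titles differs between the groups, and whatever it stands for cannot be told apart from extravasation.

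Total counts ranged from 11705904 to 19674733 per library. All 8 melanoma markers listed (Pmel, Tyr, Tyrp1, Dct, Mlana, Mitf, Sox10 and Gpr143) were present, with a summed level of 23928 to 30945 CPM (counts relative to library size, with edgeR's TMM factors). Endothelial markers summed to at most 0.984 CPM with 4 of 5 at 0, leukocyte and macrophage markers to at most 4.69 CPM with 3 of 5 at 0, fibroblast markers to 8.51 to 11.3 CPM with 2 of 6 at 0, and the 4 keratinocyte markers were at 0. The counts are of mouse genes and the host was zebrafish, so these sums do not measure fish cells that were carried over. Of the 12320 genes tested, 45.1% were called, 19.1% higher and 25.9% lower in the extravasated libraries (edgeR's quasi-likelihood test, Benjamini-Hochberg adjusted p under 0.05). Fold changes ran with the GC content of the transcripts: across 11126 nuclear coding genes Spearman's rho was 0.743, a correlation across genes, which are not independent replicates. A correction for GC content and length of the transcript brought it to 0.0123, and 14.1% of genes were then called, 8.24% higher and 5.83% lower. With properties of the longest coding transcript in place of the principal one, 13.5% were called, 8.05% higher and 5.44% lower. Values as counted and corrected values are therefore given side by side.

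Bone morphogenetic proteins (BMPs) are secreted ligands that join a type II receptor such as Bmpr2 with a type I receptor such as Bmpr1a. The type I receptor phosphorylates Smad1, Smad5 or Smad9, which enter the nucleus with Smad4 and switch on targets, among which the Id genes are classic examples. Id proteins have a helix-loop-helix domain for pairing but no DNA-binding region. They capture E proteins such as Tcf3 and keep them off DNA, and they are known for holding cells in a growing, less differentiated state. Smad6, Smad7 and Bambi are induced by the pathway and inhibit it.

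The shared helix-loop-helix domain is what makes the 4 Id genes a family, and likeness in sequence also bears on whether reads could have been exchanged among them. The best matching stretch of 120 coding bases lay in exon 1 of each gene, and is shown here with the 69 bases that all 4 genes share in capitals (GENCODE M21 transcripts, GRCm38, 5′ to 3′ on the coding strand). The places are chr2:152736518-152736637 on the plus strand for Id1, chr12:25095783-25095902 on the minus strand for Id2, chr4:136144002-136144121 on the plus strand for Id3 and chr13:48261693-48261812 on the plus strand for Id4.
Id1: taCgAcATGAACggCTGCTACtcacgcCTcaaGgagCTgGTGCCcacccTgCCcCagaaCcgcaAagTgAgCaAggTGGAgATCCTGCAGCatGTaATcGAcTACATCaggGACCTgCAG
Id2: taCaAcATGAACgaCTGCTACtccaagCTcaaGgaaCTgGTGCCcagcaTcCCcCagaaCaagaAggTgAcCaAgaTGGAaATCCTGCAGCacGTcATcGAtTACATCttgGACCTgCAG
Id3: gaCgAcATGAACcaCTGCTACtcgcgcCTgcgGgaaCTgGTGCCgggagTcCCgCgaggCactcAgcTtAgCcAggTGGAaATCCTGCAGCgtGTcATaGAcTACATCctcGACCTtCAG
Id4: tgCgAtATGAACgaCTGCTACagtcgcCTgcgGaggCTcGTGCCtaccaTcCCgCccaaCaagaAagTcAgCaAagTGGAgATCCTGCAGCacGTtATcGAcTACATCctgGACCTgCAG
Within this stretch Id1 and Id2 were the most alike pair, with 81.7% of bases the same, and Id3 shared 70.8% with Id1, 71.7% with Id2 and 70.8% with Id4. Over whole transcripts, this stretch included, the longest run of identical bases between any 2 of the genes was 19, between Id2 and Id3. The transcripts also differed in base composition. The Id1 and Id3 transcripts held 55.2% and 55.6% GC, and those of Id2 and Id4 held 42.4% and 42.6%. The coding parts were richer in GC in all 4 (64.9% in Id1, 55.0% in Id2, 63.6% in Id3 and 71.4% in Id4), and the Id2 transcript behind its coding part, stop codon included, had 33.5% over 786 bases.

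Id3 (ENSMUSG00000007872.3, chr4:136143497-136145755, plus strand), the gene picked for its difference, had 123 and 107 reads in non-extravasated libraries 1 and 2 and 409 and 625 in extravasated libraries 1 and 2. On the scaled level these were 10.7 and 6.19 CPM against 31.0 and 32.9 CPM. Both extravasated libraries stood above both controls, and they differed less from each other than the controls did. The group means were 31.9 ± 1.37 and 8.43 ± 3.17 CPM (SD, n = 2 each), a log2 difference of 1.94 as counted and of 1.41 after GC and length correction. With 1 library left out, the log2 difference as counted lay between 1.59 and 2.37.

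Id2 (ENSMUSG00000020644.9, chr12:25093799-25097140, minus strand), a partner of E proteins in many tissues, was the most abundant member. Its levels were 150.9 and 114.2 CPM in the non-extravasated and 129.5 and 111.0 CPM in the extravasated libraries. The groups overlapped, and the log2 fold change was -0.14 ± 0.167 (SE, n = 2 per group; edgeR adjusted p = 0.524). After GC and length correction the order changed. Corrected log2 levels were 6.69 and 6.55 in the controls and 7.43 and 7.23 in the extravasated libraries, which no longer overlapped. The corrected log2 fold change was 0.71 ± 0.127 (SE; edgeR adjusted p = 0.0143). This call depended on which Id2 transcript was used. The principal one has 1270 bases, and with the longest coding one of 1969 bases the value was 0.44 (adjusted p = 0.0709). Without extravasated library 1 or 2 the corrected value was 0.63 or 0.81, and Id2 was not called. Those fits leave 1 extravasated library and called few or no genes.

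Id1 (ENSMUSG00000042745.9, chr2:152736251-152737410, plus strand), the best known direct target of BMP SMADs, was scarce. It had 54 and 32 reads in the controls and 65 and 113 in the extravasated libraries, or 4.69 and 1.85 CPM against 4.92 and 5.95 CPM. The groups did not overlap, but non-extravasated library 1 lay close to extravasated library 1. The log2 fold change of 0.77 ± 0.443 did not pass (SE, n = 2 per group; edgeR adjusted p = 0.19), and it was 0.21 after correction (adjusted p = 0.765). With 1 control left, the log2 fold change was 1.56 without non-extravasated library 1 and 0.23 without non-extravasated library 2. The direction of the corrected value turned without the latter library, to -0.34.

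Id4 (ENSMUSG00000021379.2, chr13:48261228-48266026, plus strand), the family member best known from neural development, had 0 reads in every library. A count of 0 allows a level of up to 0.26 CPM in the shallowest and 0.158 CPM in the deepest library, taking 3 reads as the limit and covering counting error only. Its exons overlap those of 2 genes on the opposite strand, A330033J07Rik and Gm49291, over 82 and 171 bases, and both of those also had 0 reads.

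Levels per kilobase of exon put the family on 1 scale for length. The GC and length correction acts on each gene's deviations from its own mean over the libraries. Neither the counted nor the corrected levels are therefore adjusted for GC differences between genes, and the shares and ratios below serve to compare libraries. Id2 stood at 61.9 and 46.9 CPM per kilobase in the controls and 53.1 and 45.5 in the extravasated libraries. Id3 stood at 5.96 and 3.46 against 17.3 and 18.4 CPM per kilobase. Id1 was lowest of the 3 in every library, at 4.04 and 1.6 CPM per kilobase in the controls and 4.24 and 5.13 in the extravasated libraries. As counted, Id3 made up 8.29% and 6.66% of the summed family level in the controls and 23.2% and 26.6% in the extravasated libraries, while Id2 went from 86.1% and 90.3% to 71.2% and 66.0%. As a share of Id family reads, without length, Id3 was 6.42% (95% Clopper-Pearson interval 5.36 to 7.61) and 5.06% (4.17 to 6.09) in the controls, and 18.7% (17.1 to 20.4) and 22.0% (20.4 to 23.5) in the extravasated libraries. These intervals cover counting error only. After GC and length correction the shift was much smaller. Id3 then made up 13.3% and 9.52% of the summed level in the controls and 16.6% and 18.5% in the extravasated libraries. Id2 made up 77.6% and 85.7% in the controls and 79.3% and 76.3% in the extravasated libraries, so that its groups overlapped. The level of Id2 per kilobase was 10.4 and 13.6 times that of Id3 in the controls and 3.07 and 2.48 times in the extravasated libraries as counted, and 5.85 and 9 times against 4.78 and 4.12 times after correction. The correction raised the log2 fold change of Id2 and lowered that of Id3, and most of the shift in share as counted went with it. The shares follow from the same Id3 reads that led to its choice and are a description. As counted, the summed level of the family was 71.9 and 51.9 CPM per kilobase in the controls and 74.7 and 69.1 in the extravasated libraries, with overlap. A corrected sum was not computed. Corrected log2 levels in the controls and extravasated libraries were 6.69 and 6.55 against 7.43 and 7.23 for Id2. For Id3 they were 3.70 and 2.93 against 4.73 and 4.74, and for Id1 2.53 and 1.30 against 2.07 and 2.29. After correction Id2 and Id3 were thus both higher without overlap, and Id1 overlapped.

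**Figure D1:**
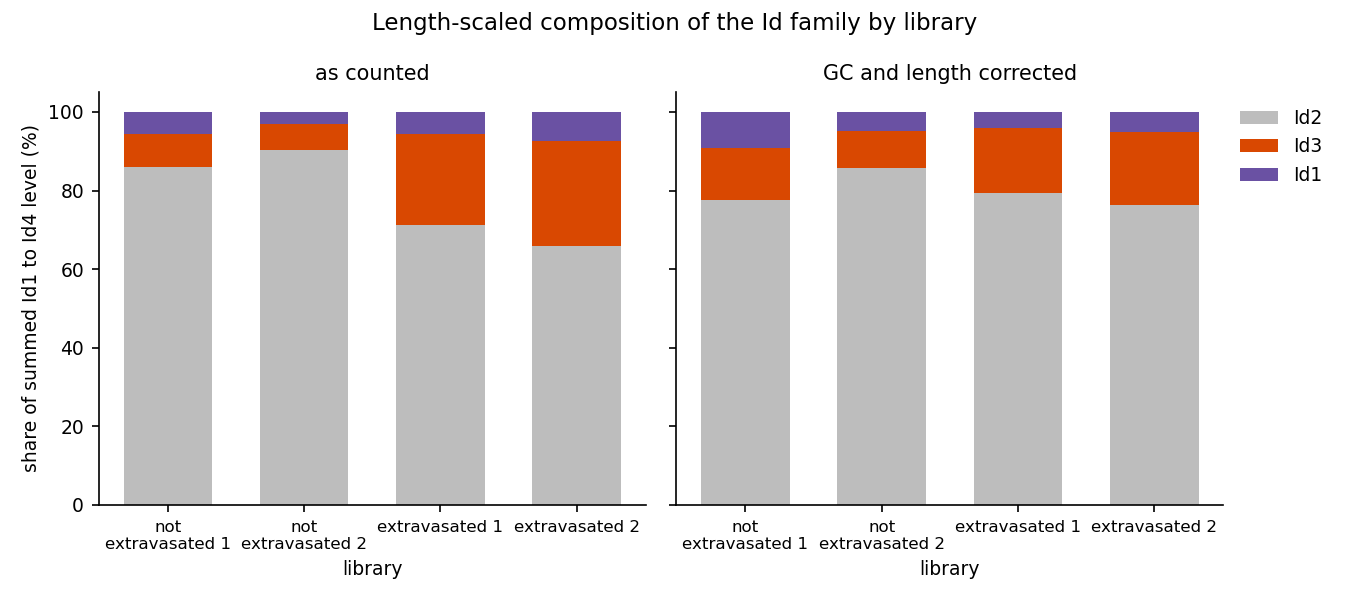
Stacked bars give the share (%) of Id1, Id2 and Id3 in the summed length-scaled level of the Id family in each of the 4 libraries, as counted on the left and after GC and length correction on the right; Id4 had 0 reads and is not visible. Id2 held the largest part in every library. The Id3 part was 6.66% and 8.29% in the non-extravasated and 23.2% and 26.6% in the extravasated libraries as counted, and 9.52% and 13.3% against 16.6% and 18.5% corrected.

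Differences between the 2 control libraries played no part in choosing the genes. Non-extravasated library 1 was higher than library 2 in all 3 expressed Id genes. Its level relative to library 2 was 2.53 for Id1 (95% counting interval 1.61 to 4.05), 1.72 for Id3 (1.32 to 2.26) and 1.32 for Id2 (1.24 to 1.41). Over 11655 genes whose mean reached 1 CPM, 15.7% differed by more than 1.5-fold between these libraries, in either direction. Between the extravasated libraries the ratios of library 1 to library 2 were 0.827 for Id1 (0.60 to 1.13), 0.941 for Id3 (0.829 to 1.07) and 1.17 for Id2 (1.09 to 1.24). These are ratios of single libraries and have no replicate check.

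By the likeness rule, the genes closest to Id3 were sought among 8664 others with a mean of at least 10 CPM, by the Euclidean distance of log2 levels, each taken from the gene's own mean over the 4 libraries. Among the 6 nearest were Mcrip2 (distance 0.211), Sac3d1 (0.504), Prss12 (0.591), Lypla2 (0.601) and Esrra (0.612). With 4 libraries this is a description of shape only. Mcrip2 ran from 10.7 and 6.42 CPM in the controls to 29.0 and 28.1 CPM, almost the course of Id3. The transcripts of these genes held 56.6% to 63.5% GC. After correction the log2 difference was 1.05 for Mcrip2, 0.83 for Sac3d1, 1.09 for Prss12, 0.84 for Lypla2 and 0.87 for Esrra, below the 1.41 of Id3 in each case. Being chosen for likeness to Id3, they are given without a test.

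Of the receptors, Bmpr1a was called lower in extravasated cells as counted and Bmpr2 was not, and neither was called after correction. Bmpr1a (ENSMUSG00000021796.15, chr14:34410734-34503341, minus strand), a type I receptor, stood at 63.3 and 55.2 CPM in the controls and 18.2 and 26.2 CPM in the extravasated libraries. Every extravasated value lay below every control, and the 2.66-fold fall passed (log2 fold change -1.41 ± 0.201, SE, n = 2 per group; edgeR adjusted p = 0.00216). With 1 library left out, the log2 fold change lay between -1.66 and -1.08. The Bmpr1a transcript has 41.3% GC, less than that of all but 7.92% of the tested genes, and 5956 bases. After correction the log2 fold change was -0.09 ± 0.184 (adjusted p = 0.777), and its sign depended on the libraries kept.

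Bmpr2 (ENSMUSG00000067336.6, chr1:59763400-59879014, plus strand), the type II receptor, stood at 149.6 and 57.9 CPM in the controls and 34.8 and 46.2 CPM in the extravasated libraries. The controls lay far apart, with library 1 at 2.58 times library 2 (95% counting interval 2.39 to 2.80). The log2 fold change of -1.35 ± 0.456 did not pass (SE; edgeR adjusted p = 0.0607). It passed with the title suffix as a term (-1.23, adjusted p = 0.000478), a fit that sets the libraries whose titles end in C (non-extravasated 1 and extravasated 2) against each other, and likewise the other 2. With 4 libraries, that fit leaves little from which to estimate the spread of a single gene. Without non-extravasated library 1 the log2 fold change was -0.51, and without non-extravasated library 2 it was -1.88. These fits leave 1 control, so the gap between the controls is not part of their error. The Bmpr2 transcript, of 12899 bases and 41.0% GC, is the longest among the members. The corrected value pointed the other way, at 0.51 ± 0.258 (edgeR adjusted p = 0.222), and was 0.91 without non-extravasated library 1.

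Of the signal carriers, Smad5 (ENSMUSG00000021540.16, chr13:56703010-56742377, plus strand) was the more abundant. It stood at 104.2 and 98.1 CPM in the controls and 65.7 and 55.9 CPM in the extravasated libraries, with no overlap. The fall passed as counted (log2 fold change -0.74 ± 0.139, SE, n = 2 per group; edgeR adjusted p = 0.00547), and not without extravasated library 2 (-0.58, adjusted p = 0.0704). After correction the value was 0.31 ± 0.117 (adjusted p = 0.117), with the groups apart in the other direction. Smad1 (ENSMUSG00000031681.16, chr8:79338395-79399518, minus strand) stood at 22.5 and 25.7 CPM in the controls and 20.4 and 18.3 CPM in the extravasated libraries. Its log2 fold change of -0.32 ± 0.177 did not pass (edgeR adjusted p = 0.174), nor did the corrected -0.19 ± 0.159 (adjusted p = 0.435).

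The inhibitors Smad6 and Smad7, themselves targets of the pathway, had higher values in the extravasated libraries that did not pass. Smad6 (ENSMUSG00000036867.7, chr9:63953076-64022059, minus strand), which blocks the BMP receptors, had 4.95 and 4.11 CPM in the controls and 6.44 and 7.58 CPM in the extravasated libraries. The groups did not overlap, and the log2 fold change was 0.64 ± 0.27 (SE, n = 2 per group; edgeR adjusted p = 0.0876). Without non-extravasated library 1 the log2 fold change was 0.78. Smad7, which blocks receptors of both the BMP and the TGF-beta pathway, had 12.4 and 11.9 CPM in the controls and 16.0 and 14.1 CPM in the extravasated libraries, a log2 fold change of 0.31 ± 0.195 (adjusted p = 0.233). After correction the log2 fold changes were 0.18 ± 0.249 for Smad6 (adjusted p = 0.662) and 0.01 ± 0.183 for Smad7 (adjusted p = 0.984).

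**Figure D2:**
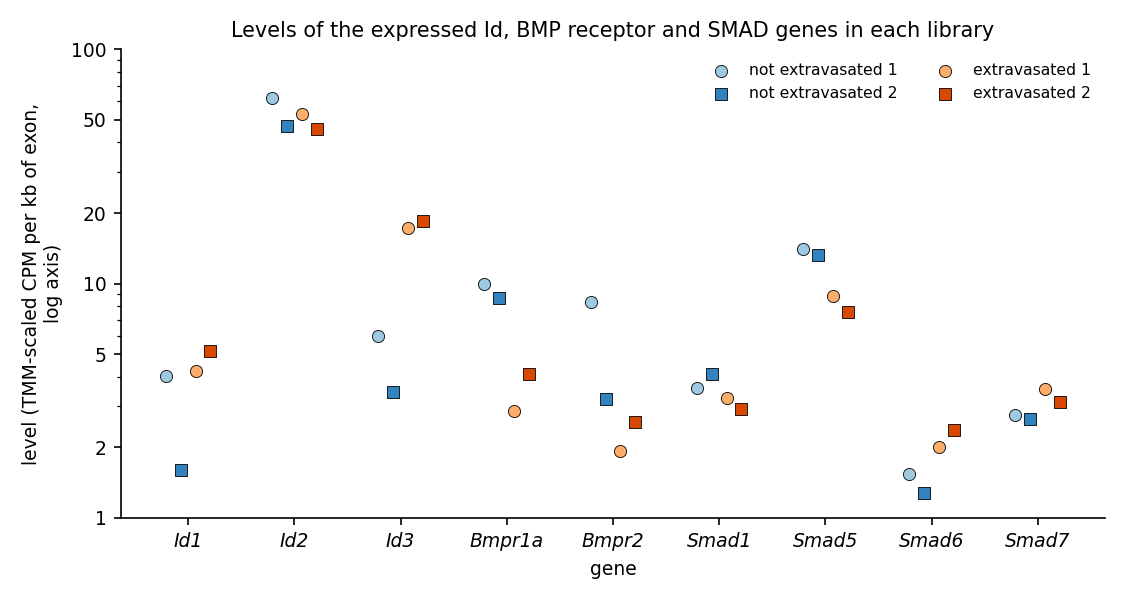
Each point is the level of 1 gene in 1 library, in TMM-scaled CPM per kilobase of exon on a log axis; blue marks the non-extravasated and orange the extravasated libraries, circles library 1 and squares library 2. Id3 lies higher and Bmpr1a and Smad5 lie lower in both extravasated libraries, and Bmpr2 and Id1 show a wide gap between the 2 control libraries.

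Per kilobase of exon and as counted, Id2 was the highest of the 10 genes in every library. In the controls Smad5 came second, at 14 and 13.2 CPM per kilobase, followed by Bmpr1a at 9.96 and 8.69. Below these, the ranges of Bmpr2 (3.22 to 8.32), Id3 (3.46 to 5.96), Smad1 (3.59 to 4.10) and Id1 (1.6 to 4.04) overlapped, so their order is not settled. Smad7 (2.64 to 2.75) lay within the range of Id1, and Smad6 (1.28 to 1.54) came last of the expressed genes. In the extravasated libraries Id3 came second at 17.3 and 18.4 CPM per kilobase, followed by Smad5 at 8.86 and 7.54. Id1 (4.24 to 5.13) came next, the ranges of Bmpr1a (2.86 to 4.12), Smad7 (3.12 to 3.53) and Smad1 (2.92 to 3.26) overlapped, and so did those of Bmpr2 (1.93 to 2.57) and Smad6 (2.01 to 2.37). These levels are not adjusted for GC differences between genes, and corrected levels were not ranked. The correction raised the log2 fold changes of Bmpr1a and Bmpr2 and lowered that of Id1. The order below Smad5 in the extravasated libraries therefore holds for counted levels only.

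Over the 8 tested members other than Id3, 0 were called higher and 2 lower as counted, where 19.1% and 25.9% of all tested genes were. At an unadjusted p under 0.05, edgeR gave 1 higher, Smad6, and 3 lower, Bmpr1a, Bmpr2 and Smad5, and DESeq2 also called 0 higher and 2 lower. After correction 1 was called higher, Id2, and 0 lower, where 8.24% and 5.83% of all genes were. With 8 genes, neither count is read as a result about the members. At an unadjusted p under 0.05 the corrected edgeR fit gave 2 higher, Id2 and Smad5, and 0 lower. The median log2 fold change of the 8 was -0.23 as counted and 0.19 corrected, against -0.02 and 0.04 over all tested genes. Direction as counted is set beside base composition as a description only, since Id3 was chosen for its rise. The members whose extravasated libraries lay above both controls (Id1, Id3, Smad6 and Smad7) had transcripts of 55.2% to 60.8% GC. Those below (Bmpr1a, Bmpr2, Smad1 and Smad5) had 41.0% to 49.6%, and Id2, whose groups overlapped, had 42.4%. The cause was not tested. Among all tested genes 37.3% lay above and 39% below without overlap. The correction moved the log2 fold change most for Bmpr2, from -1.35 to 0.51, and least for Smad1, from -0.32 to -0.19. The correction depends only on transcript GC content and length. Id3 and Id1, with almost the same GC content, were thus moved by nearly the same amount, 0.53 and 0.57.

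**Figure D3:**
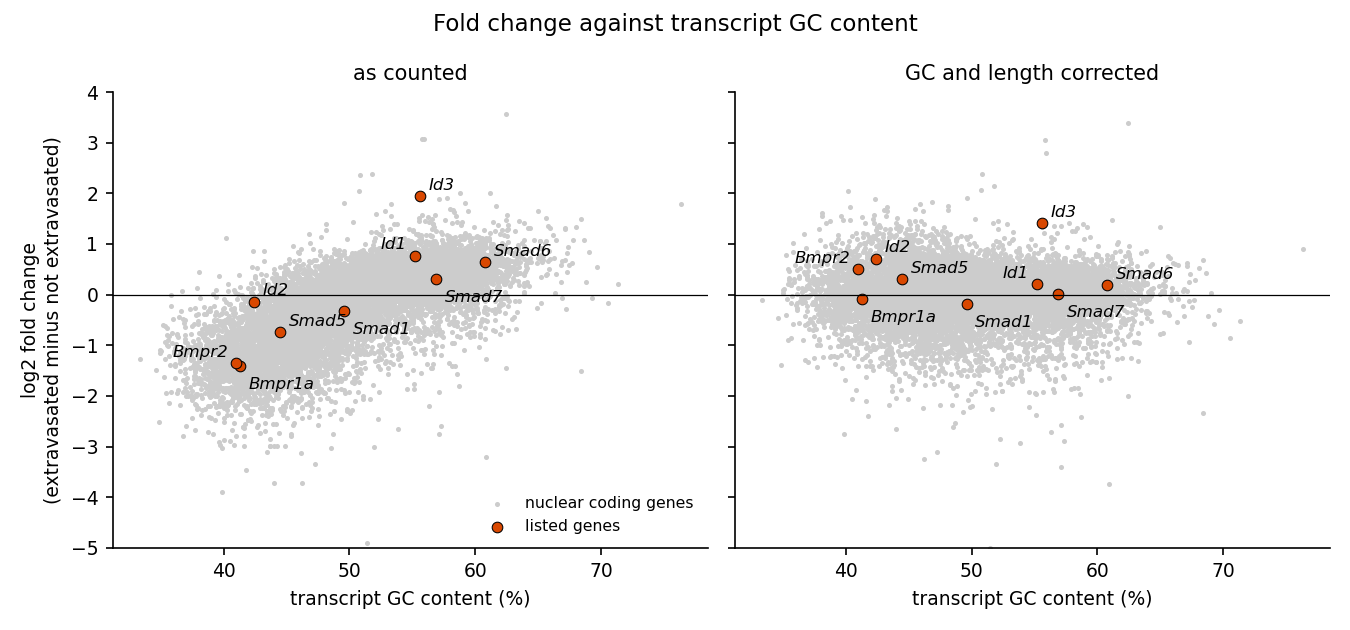
Each grey point is 1 of 11126 nuclear coding genes, with transcript GC content (%) on the horizontal and the log2 fold change, extravasated minus non-extravasated, on the vertical axis; orange points are the 9 expressed members. As counted (left) the cloud rises from left to right and the other members lie within it, with Id3 at 1.94 above most of it; after correction (right) the cloud is level and Id3, at 1.41, again lies above most of it.

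**Figure D4:**
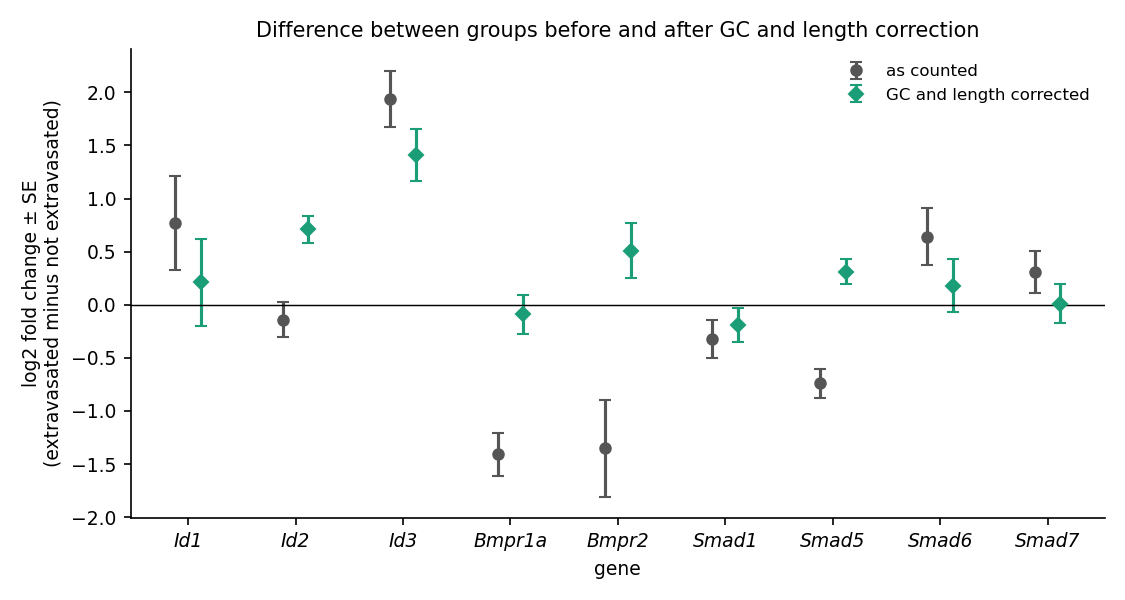
Points give the log2 fold change of each expressed member with its SE, as counted (grey circles) and after GC and length correction (green diamonds). Bmpr1a, Bmpr2 and Smad5 move from below 0 to between -0.09 and 0.51, Id2 moves from -0.14 to 0.71, and Id3 has the highest value in both series.

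Another 95 genes around the members were listed by role, of which 55 were tested. As counted, 7 were called higher and 14 lower, where 19.1% and 25.9% of all tested genes were, and after correction 5 and 1, where 8.24% and 5.83% were. These shares are near or below those of all genes and are not read as a result about the pathway. The median log2 fold change over the 55 was -0.02 as counted and 0.05 corrected. As counted, 3 were called higher and 9 lower without extravasated library 1, and 2 and 6 without extravasated library 2. After correction 0 were called without either of them (edgeR). At an unadjusted p under 0.05 there were then 6 higher and 3 lower without library 1, and 4 and 3 without library 2. Of the 21 calls as counted, 8 held with each library left out in turn (Ctdsp1, Fzr1, Tcf12, Tcf4, Tob1, Usp1, Usp15 and Zeb2). The other 13 ended without extravasated library 2, 9 of them also without extravasated library 1 (Acvr2a, Neo1, Fstl1, Smurf1, Stub1, Fkbp1a, Usp9x, Tcf3 and Cdkn1b). Acvr2a's call also ended without non-extravasated library 1, and those of Fstl1, Smurf1 and Fkbp1a without non-extravasated library 2.

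BMP ligands were nearly undetected in these cells. Of 13 listed, Gdf7 alone passed the filter, at 2.26 and 2.95 CPM in the controls and 2.80 and 1.90 CPM in the extravasated libraries, with overlapping groups (adjusted p = 0.733, edgeR). Bmp2, Bmp4 and Bmp7, the best known ligands, had 0 reads in all 4 libraries. Bmp6, Gdf5 and Gdf6 had 1 read each over all 4 libraries, and Bmp8a and Bmp8b had 4. Of the 15 listed antagonists 5 passed the filter. Nog and Chrd, which trap BMPs, had 3 reads each over all libraries, and Grem1 had 0.

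Receptors other than the members were present. Of 10 listed receptors and co-receptors 8 were tested. As counted, 0 were called higher and 2 lower, where 19.1% and 25.9% of all tested genes were. The 2 were Acvr2a, an activin and BMP type II receptor (log2 fold change -1.02, edgeR adjusted p = 0.0472), and Neo1, a receptor for repulsive guidance molecules (-0.45, adjusted p = 0.0369). Neither passed after correction, at 0.39 and 0.05, and none of the 8 did. At an unadjusted p under 0.05, edgeR gave Eng as the one higher as counted, and Acvrl1 as the one lower after correction. Eng, a BMP co-receptor, had 316.4 and 185.3 CPM in the controls and 403.6 and 410.3 CPM in the extravasated libraries (log2 fold change 0.70 ± 0.248, SE; adjusted p = 0.0636; named after its values were seen). It passed with DESeq2 (adjusted p = 0.00846) and with the title suffix as a term (0.75, adjusted p = 0.00107), and its corrected value was 0.32 (adjusted p = 0.399). At 45.8 to 101.4 CPM per kilobase, Eng stood above each of the other receptors named here. The type I receptors Acvr1 (6.25 to 7.41 CPM per kilobase) and Acvrl1 (6.13 to 9.21) had overlapping groups. Bmpr1b had 0 reads.

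Among SMAD partners, Tob1, an antiproliferative protein that binds BMP SMADs, fell as counted (-1.13 ± 0.14, adjusted p = 0.00132) and after correction (-0.54 ± 0.127, SE; edgeR adjusted p = 0.0323). It stood at 61.7 and 59.0 CPM in the controls and 28 and 27.1 CPM in the extravasated libraries, and was the only one of the 55 pathway genes called lower in both fits with all libraries. Without extravasated library 1 or 2 its corrected value was -0.46 or -0.58. Tob1 was not called in these fits, which called few or no genes. Zeb2, a zinc finger repressor that binds SMADs, fell as counted (-1.76, adjusted p = 0.00324) and missed the threshold after correction (-0.69, adjusted p = 0.055; -0.15 with the longest transcript). Without non-extravasated library 2 its corrected value was -0.92, and without non-extravasated library 1 it was -0.41. Smad4, the shared partner, had overlapping groups of 62.1 to 80.9 CPM (log2 fold change -0.08, adjusted p = 0.702).

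Smad9 and Bambi were the other 2 genes of the SMAD and antagonist lists with a corrected call, and they are named after their values were seen. Smad9, a further BMP SMAD and a target of the pathway, was at 3.47 and 3.53 CPM in the controls and 6.13 and 5.53 CPM in the extravasated libraries (log2 fold change 0.73 as counted, adjusted p = 0.0647). After correction it rose by 1.23 ± 0.259 (SE; edgeR adjusted p = 0.0233). Bambi, a receptor-like decoy that the pathway induces, was at 10.6 and 11.3 CPM in the controls and 16.1 and 13.3 CPM in the extravasated libraries (0.42, adjusted p = 0.129). After correction it rose by 1.42 ± 0.192 (SE; edgeR adjusted p = 0.00698). With either extravasated library left out, corrected values were 1.37 and 1.5 for Bambi and 1.25 and 1.23 for Smad9. Neither gene was called in these fits, which called few or no genes. Bambi's transcript has 44.0% GC, so that its corrected value lies well above the counted one, as it does for Id2.

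Of the 10 listed BMP targets beyond the members, 5 were tested. Of these, 0 were called in either direction as counted or corrected (edgeR), where 45.1% and 14.1% of all tested genes were. At an unadjusted p under 0.05 there was 1 in each direction as counted, Hes1, a transcriptional repressor (log2 fold change -0.64, edgeR adjusted p = 0.0899), and Atoh8 (1.28 ± 0.521, adjusted p = 0.0928), and Hes1 alone after correction (-0.79, adjusted p = 0.0748). Atoh8, a basic helix-loop-helix factor, is named after its values were seen. It had 6.86 and 2.08 CPM in the controls and 9.77 and 11.3 CPM in the extravasated libraries. Library 1 of the controls stood at 3.29 times library 2 (95% counting interval 2.19 to 5.03), the same direction as in Id1 and Id3. The other tested targets in control libraries 1 and 2 had 7.81 and 10.2 CPM (Hes1), 7.81 and 9.72 (Gata2), 0.434 and 0.694 (Dlx2) and 4.86 and 4.69 (Runx2). Hes1, Gata2 and Dlx2 were thus higher in library 2. Atoh8 passed with DESeq2 (adjusted p = 0.0284) and with the title suffix as a term (1.41, edgeR adjusted p = 0.00158). Its log2 fold change was 2.34 without non-extravasated library 1, and its corrected value was 0.76 (edgeR adjusted p = 0.34). Hey1, Msx1, Msx2, Dlx3 and Dlx5 had 0 reads.

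The E proteins that Id proteins capture differed in direction as counted. Tcf4 fell from 38.6 and 34.4 to 10.4 and 12 CPM (log2 fold change -1.70 ± 0.178, SE; edgeR adjusted p = 0.00087). Tcf12 fell from 378.0 and 321.7 to 159.3 and 121.8 CPM (-1.32, adjusted p = 0.00141), and Tcf3 rose from 100.9 and 113.4 to 145.7 and 146.9 CPM (0.45, adjusted p = 0.0232). None of these passed after correction, at -0.18, -0.27 and -0.01. Twist1 and Twist2 had 0 reads. Among factors of Id protein turnover, Usp1, the enzyme that removes ubiquitin from Id proteins, fell as counted from 249.8 and 248.6 to 90.2 and 110.2 CPM (-1.31, adjusted p = 0.00087), while Fzr1 and Cdc20, activators of the anaphase-promoting complex, rose (0.75 and 0.72, adjusted p = 0.00439 and 0.0058). After correction these 3 did not pass (-0.43, 0.30 and 0.27), and Cops5, named after its values were seen, did (0.54, adjusted p = 0.0251), though not without either extravasated library.

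In the list of genes that act on SMADs and receptors after synthesis (ubiquitin ligases, deubiquitinases, phosphatases and binding proteins), 4 of 15 were called higher and 4 lower as counted. Of all tested genes 19.1% and 25.9% were, and the counts are not read as a result about the list. Ctdsp1, a phosphatase of SMAD linkers, Stub1 and Smurf1, ubiquitin ligases, and Fkbp1a, which holds type I receptors inactive, rose by 0.76, 0.56, 0.52 and 0.36 (adjusted p = 0.00329, 0.0178, 0.0218 and 0.0324). Usp15 and Usp9x, deubiquitinases, Smurf2, a ubiquitin ligase, and Lemd3, an inner nuclear membrane protein that binds SMADs, fell by 1.42, 1.44, 0.82 and 0.79 on the log2 scale (adjusted p = 0.00284, 0.0452, 0.00344 and 0.0462). The call of Usp9x ended with RLE factors, no expression filter, DESeq2 or limma-voom, and that of Fkbp1a with library totals. After correction none of these 8 passed, and the called genes were Ppm1a and Ppm1h, phosphatases, named after their values were seen. As counted, Ppm1a was lower, at 65.4 and 76.8 CPM in the controls and 59.8 and 48.5 CPM in the extravasated libraries. Its log2 fold change was then -0.39 and that of Ppm1h 0.29 (edgeR adjusted p = 0.0782 and 0.134). Corrected, both were called higher (0.80 and 0.47, adjusted p = 0.0281 and 0.0467). Both calls ended without either extravasated library, and that of Ppm1h also without non-extravasated library 2. With the longest transcript Ppm1h was not called (0.44, adjusted p = 0.0552), and Nedd4l, a ubiquitin ligase also named after its values were seen, was called higher (1.38, adjusted p = 0.0068, against 0.40 and 0.257 with the principal one). Of the 2 secreted antagonists called lower as counted, Twsg1 (-0.80, adjusted p = 0.00383) and Fstl1 (-0.73, adjusted p = 0.0322), neither passed after correction (-0.05 and -0.37). Among genes that E proteins and Id proteins regulate, Cdkn1b, a cell cycle inhibitor, fell as counted (-0.92, adjusted p = 0.0108) and was at 0.12 after correction. Cdkn1a, another cell cycle inhibitor, had overlapping groups, with 259.3 and 72.3 CPM in the controls and 131.5 and 152.6 CPM in the extravasated libraries, and Cdkn2a and Cdkn2b had 0 reads.

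**Figure D5:**
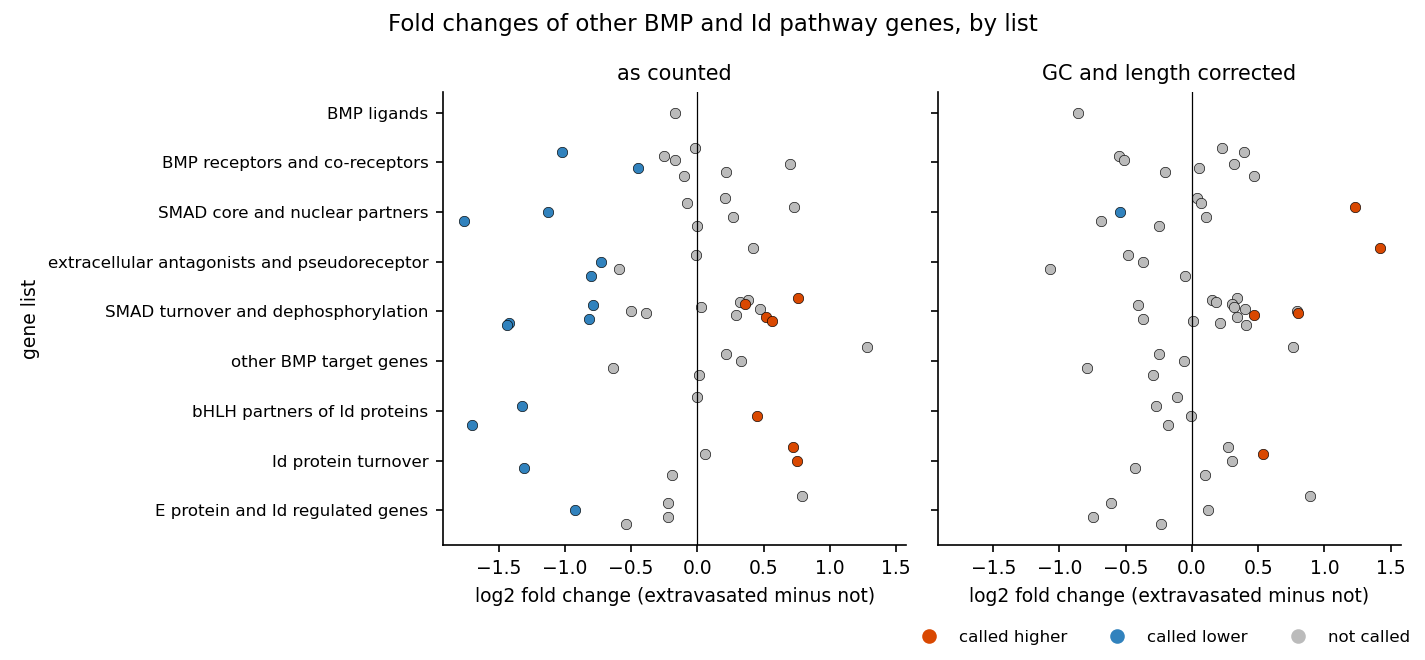
Each point is 1 of 55 tested pathway genes, placed by list (vertical) and log2 fold change, extravasated minus non-extravasated (horizontal), as counted on the left and corrected on the right; orange marks genes called higher, blue genes called lower and grey genes not called. The 14 genes called lower as counted are reduced to 1, Tob1, after correction, and the corrected points farthest to the right are Bambi at 1.42 and Smad9 at 1.23.

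The promoters of Id3 and Smad6 are shown because both are targets of BMP SMADs and had higher values in extravasated cells, Id3 as the gene picked and Smad6 without passing. Each is a RefSeq window (GRCm38.p6) of 300 bases, from 250 before to 50 after the start, 5′ to 3′ on the gene's strand. Capitals mark the motifs searched, the GC-rich core GGCGCC of BMP SMADs, the SMAD palindrome GTCTAGAC and the E-box CANNTG of helix-loop-helix factors. Each reads the same on both strands, and the marked matches do not overlap. The windows are chr4:136143572-136143871 on the plus strand for Id3 and chr9:64022010-64022309 on the minus strand for Smad6.
Id3 promoter: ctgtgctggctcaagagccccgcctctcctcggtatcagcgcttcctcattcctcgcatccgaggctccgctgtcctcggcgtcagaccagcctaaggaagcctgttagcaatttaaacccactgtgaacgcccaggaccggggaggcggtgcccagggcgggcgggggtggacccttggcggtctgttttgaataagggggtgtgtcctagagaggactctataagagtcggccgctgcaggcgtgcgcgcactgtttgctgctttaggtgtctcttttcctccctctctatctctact
Smad6 promoter: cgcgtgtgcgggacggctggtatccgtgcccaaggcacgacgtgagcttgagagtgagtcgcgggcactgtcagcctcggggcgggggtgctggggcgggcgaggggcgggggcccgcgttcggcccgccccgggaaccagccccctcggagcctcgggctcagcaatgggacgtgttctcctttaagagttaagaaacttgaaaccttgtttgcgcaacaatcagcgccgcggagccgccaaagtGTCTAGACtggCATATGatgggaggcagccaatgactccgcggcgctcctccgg
The Smad6 window held 1 GTCTAGAC, a motif in 0.213% of the 32851 windows of this length, and 1 E-box, found in 72.3%. The Id3 window held 0 of the 3 motifs. The Id2 window, not shown, held 1 GGCGCC, found in 11.9% of windows, and 1 E-box. GGCGCC also occurred in windows of Id4, Smad5, Bmpr1a and Bmpr2, and in none of Smad1 or Smad6. The windows of Id1 and Smad7 are not in that table. These are matches of letters, and the data do not bear on binding there.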

How the data were processed

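PolyA RNA was sequenced from 2 extravasated and 2 non-extravasated B16-F10 libraries made with a stranded mRNA kit, per the labels' protocols. The authors deposited raw read counts per gene, whole numbers without normalization. Per the submitters' processing notes, bcl2fastq 2.18.0.12, STAR 2.5.3a and the build GRCm38 were used. The read counter, annotation release, strand setting and filters are not given in the sources used here, so reads of overlapping genes may have been dropped or split. Identifiers were matched to GENCODE M21 (53360 of 53465), with Hjv taken as Hfe2.

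Genes were tested with edgeR 4.0.16 in R 4.3.3 (genes kept by filterByExpr with a minimum count of 10 and total of 15, robust TMM-based fit, two-sided quasi-likelihood test over all 12320 genes, Benjamini-Hochberg threshold 0.05), without covariates. The SE is the log2 fold change over the square root of F. Levels in CPM were computed from the deposited counts with TMM factors, and per-kilobase levels use the union of annotated exons. The correction smoothed each library's log2 CPM deviations (prior count 2) on GC content and log2 length of the principal transcript (mgcv 1.9.3, basis size 10) as an edgeR offset. Properties were known for 12307 tested genes. Alternatives were RLE factors, library totals, no filter, DESeq2 1.42.0, limma-voom (limma 3.58.1), the kind of title suffix as a term, the longest transcript, and leaving out each library. With 1 library left in a group, it is assumed to vary like the other group. Passing in such a fit therefore does not take in the spread of that group. With 1 extravasated library left out, the corrected fit called few or no genes.

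The code was tested on simulated counts of this comparison over 12320 genes, and recovered 69.1% of changes of 1 and 94.8% of changes of 2 on the log2 scale. These counts were simulated without a GC or length trend and fitted without the correction. The shares recovered therefore do not apply to the corrected fit. The members and gene lists were chosen with earlier results of these data known. Named pathway genes are up to 4 called per list and direction with the smallest adjusted p; others are marked. All listed marker levels are given as sums. One of the 6 genes nearest to Id3 and 1 listed helix-loop-helix gene are not reported here.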

Additional observations from a re-analysis of the deposited data

How the results depend on the processing

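The labels give no replicate numbers, and those used here follow accession order. The title suffix, C in 1 library of each group and another letter in the others, was tried as a term. What it stands for is not given. With 4 libraries, this added term leaves little from which to estimate a gene's spread, so passing with it carries less weight. Over all genes that fit called 2632 higher and 3533 lower, against 2355 and 3196 without the term. The members' directions and calls did not change with RLE factors, DESeq2, limma-voom or no expression filter. Bmpr2 passed with library totals (-1.39, adjusted p = 0.0245) and with the title suffix term (-1.23, adjusted p = 0.000478). Some pathway calls ended under other settings. Usp9x was not called with RLE factors or no filter (edgeR adjusted p = 0.114 and 0.329), DESeq2 (0.0637) or limma-voom (0.0839). Acvr2a was not called with limma-voom (adjusted p = 0.0805). Fkbp1a and Tcf3 were not called with library totals (edgeR adjusted p = 0.0553 and 0.0549). Read counts limit Id1 and Smad6, with 32 to 144 reads per library.

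With the GC and length correction on the principal or the longest transcript, 1 or 0 members other than Id3 were called higher and 0 lower, against 0 and 2 as counted, and 1 pathway gene was called lower in either case, against 14. Over all genes 1015 or 992 were called higher and 718 or 670 lower, against 2355 and 3196. These values turned direction under the correction, with the principal and longest transcript: Id2 to 0.71 and 0.44, Smad5 to 0.31 and 0.28, Bmpr2 to 0.51 and 0.50, Neo1 to 0.05 and 0.02, Acvr2a to 0.39 and 0.39, Usp15 to 0.21 and 0.20, Usp9x to 0.41 and 0.41, Tcf3 to -0.01 and -0.03, Cdkn1b to 0.12 and 0.10, and Ppm1a to 0.80 and 0.78. Stub1 was at -0.01 with the longest transcript. With the title suffix term 11 pathway genes were called higher, against 7. The cause of these changes was not tested.

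With 1 library left out, members other than Id3 called higher ranged from 0 to 2 as counted and 0 to 2 corrected, and called lower from 1 to 3 as counted. Pathway genes called higher ranged from 2 to 11 as counted and 0 to 13 corrected, and called lower from 6 to 16 and 0 to 6. All genes called higher ranged from 545 to 2758 as counted and 0 to 1920 corrected, and called lower from 1329 to 3541 and 0 to 1398. The lowest of these came without extravasated library 2, where the corrected edgeR fit called 0 of 12715 genes, with 1213 higher and 892 lower at an unadjusted p under 0.05. Id2 as counted ranged from -0.32 to 0.07. Corrected values that turned direction ranged from -0.34 to 0.96 for Id1, -0.11 to 0.14 for Smad7, -0.37 to 0.13 for Bmpr1a, -0.02 to 0.12 for Neo1, -0.12 to 0.05 for Twsg1, -0.10 to 0.17 for Stub1, -0.06 to 0.06 for Tcf3, -0.23 to 0.61 for Cdkn1b and -0.01 to 0.78 for Eng.

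The mean Id3 share of the family was 7.47% in the controls and 24.9% in the extravasated libraries by exon length, 5.66% and 20% by principal transcript length, 5.74% and 20.3% of counts, and 11.4% and 17.5% on GC and length corrected levels, an alternative chosen after seeing the data.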
